A study of Mus musculus with 24 samples.

Results

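Gene expression in the gastrocnemius was compared between 8 mice that received MOTS-c and 8 that received sterilized water while both hindlimbs were in casts, 16 of the 24 libraries of the series. All were male C57BL/6J mice, 12 weeks old per the labels. The casts were worn for 8 days, and during those 8 days each mouse was injected intraperitoneally 2 times a day, with MOTS-c (15 mg/kg/day) or with the water control. The other 8 libraries, from uncasted mice given water, are used here mainly as values set beside the 16. They also enter an alternative fit of all 24 libraries and the choice of genes that separate casted from uncasted muscle. Poly-adenylated RNA was sequenced, 1 library per mouse, and the deposited values are TPM, a measure scaled for transcript length and to a fixed total per library. TPM hides sequencing depth, so the depth of each library is unknown. A gene was tested when its TPM was at least 0.5 in at least 8 of the 16 libraries, which 14318 of 55487 listed genes met. All levels below are TPM rescaled between libraries (scaled TPM), and log2 changes are MOTS-c minus water on log2(scaled TPM + 1), a scale that understates the change of genes near or below 1 TPM.

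MOTS-c is a short peptide whose coding sequence lies inside the gene for a mitochondrial ribosomal RNA, the 12S species. It has been linked to AMP-activated protein kinase, to casein kinase 2 and to glucose and lipid use in skeletal muscle. Immobilised muscle loses mass as ubiquitin ligases such as Fbxo32 and Trim63, driven by FoxO transcription factors, mark its proteins for degradation. Fat cells, fibroblast-like progenitors, macrophages, vessels and nerve lie between the fibres, so a whole-muscle library mixes RNA from all of them. Fewer cells of a type and less RNA per cell cannot be told apart in such libraries.

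Some libraries stood apart. The library labelled MOTS-c replicate 5 had 4.84 scaled TPM of Nfkb2, against 36.4 to 69.7 in the other 7 MOTS-c libraries, 37.8 to 86.4 in the casted water libraries and 4.70 to 5.71 in the uncasted ones. Its Cpne2 was 10.4 scaled TPM, against 98.6 to 225 in the other 15 casted libraries and 4.20 to 5.99 in the uncasted ones. Of 786 genes that separated all casted water from all uncasted libraries by at least 2-fold, 75.2% lay nearer the uncasted mean in this library, and 1.78% to 6.62% did so in each of the other 7 MOTS-c libraries. It was not uncasted-like throughout, since its Actc1 was 39.8 scaled TPM against 509 to 998 in uncasted muscle and 3.56 to 64.5 in the other casted libraries. Casted water replicates 5 to 8 also formed a set, with Bc1, a short non-coding RNA, at 17.7 to 29.5 scaled TPM against 60.1 to 180 in the other 20 libraries. The mitochondrial transcript mt-Atp8 was at 2457 to 3995 scaled TPM in these 4 libraries against 9265 to 19360 in the other 20. Genes whose longest annotated transcript is at most 300 bases (175 tested) deviated from their 16-library means by a median of -0.27 to -0.07 (log2) in casted replicates 5 to 8, by 0.01 to 0.18 in casted replicates 1 to 4 and by 0.09 to 0.20 with MOTS-c. In the uncasted libraries this median ran from -0.115 to 0.18, a range that holds casted replicate 7 (-0.0733). Gm42417, with a longest transcript of 2256 bases, also set casted replicates 5 to 8 apart. It was at 4.91 to 20.1 scaled TPM in them against 267 to 674 in the other 20 libraries. The labels name no batch.

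**Figure D1:**
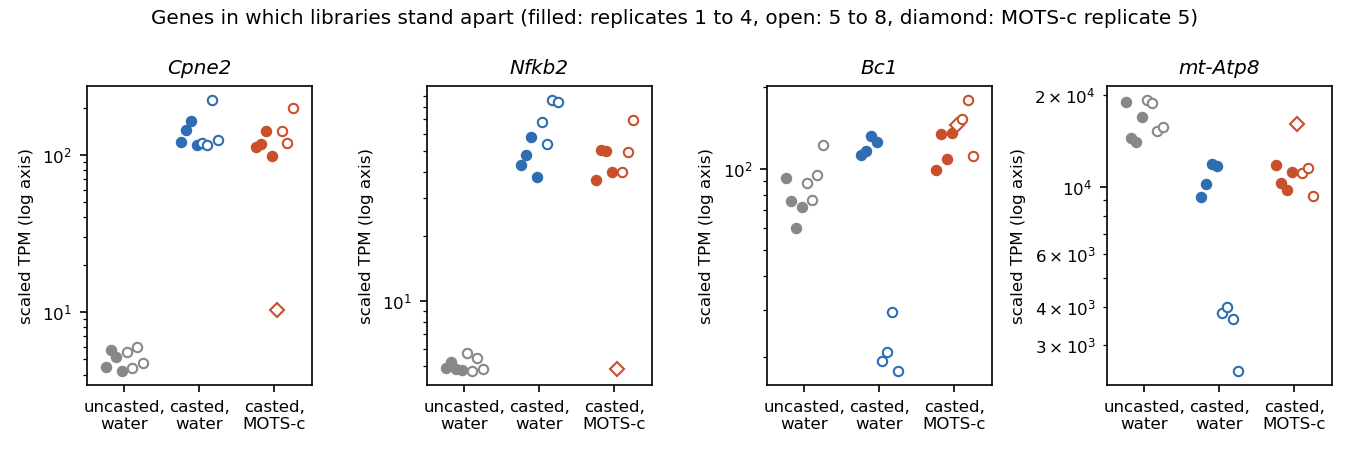
Scaled TPM (log axis) of 4 genes in each of the 24 libraries by group, with replicates 1 to 4 as filled points, 5 to 8 as open points and the library labelled MOTS-c replicate 5 as a diamond. Cpne2 and Nfkb2 place that library near the uncasted mice, and Bc1 and mt-Atp8 are lowest in casted water replicates 5 to 8.

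No gene passed an adjusted p of 0.05 in limma's moderated test of the 16 libraries, in either direction. The smallest adjusted p was 0.0934, for Cyp2e1, and 31 genes had one under 0.2. At an unadjusted p under 0.05, 668 genes (4.67% of those tested) were higher and 917 (6.4%) lower with MOTS-c, and on the deposited TPM without rescaling 357 (2.49%) were higher and 1219 (8.51%) lower. Effects were small: the median log2 change over all tested genes was -0.02, the 5th and 95th percentiles were -0.26 and 0.29, 15 genes were above 1 and 1 was below -1. All 8 MOTS-c libraries lay above all 8 water libraries for 5 genes (0.0349%), namely Arxes2, Fabp4, Hhex, Mettl21e and Tcf19. They lay below all 8 for 6 (0.0419%), namely Afg3l1, Ankrd39, Cln8, Dgkd and the processed pseudogenes Gm13835 and Gm9517. Of these, Tcf19, Cln8 and both pseudogenes were named after their values were seen.

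The count depended on which casted libraries were used. A fit that shared its spread over all 24 libraries called 2 genes higher (0.014%), Cyp2e1 and Arxes2, and 2 lower (0.014%), Ciart and Gm45808. Against casted replicates 5 to 8 alone, 242 genes were higher (1.69%) and 274 lower (1.91%) with MOTS-c at an adjusted p under 0.05, with 10.4% higher and 14.7% lower unadjusted. Against casted replicates 1 to 4 alone, none was higher (294 at an unadjusted p under 0.05, 2.05%) and 1 was lower (0.00698%; 286 unadjusted, 2%), the clock gene Ciart. Without the library labelled MOTS-c replicate 5, 0 genes passed the adjusted threshold, with 545 higher (3.81%) and 690 lower (4.82%) unadjusted. Without casted replicates 5 to 8 and the library labelled MOTS-c replicate 5, a fit of 4 against 7 libraries chosen after the data were seen, Ciart was again the 1 gene past the threshold, lower, and none was higher (351 unadjusted higher, 2.45%, and 383 lower, 2.67%).

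Cyp2e1, a cytochrome P450 that oxidises ethanol, ketone bodies and other small molecules, had the smallest p. Its level was 14.5 to 30.4 scaled TPM (median 22.5) in the casted water libraries and 29.2 to 58.8 (median 46.3) in the MOTS-c libraries. Uncasted muscle held 13.0 to 28.7 (median 18.1), so the MOTS-c libraries stood above both water groups apart from MOTS-c replicate 3, which overlapped casted water. The group means were 23.4 ± 6.04 and 45.9 ± 8.69 (SD, n = 8 each), a log2 change of 0.96 ± 0.15 (SE), and MOTS-c was higher in 61 of the 64 pairs of 1 library from each group. The change was 0.85 against casted replicates 1 to 4 (limma adjusted p = 0.406) and 1.07 against replicates 5 to 8 (adjusted p = 0.0155). It was 0.96 without the library labelled MOTS-c replicate 5. With MOTS-c replicate 3 left out the limma adjusted p was 0.0142, and with casted replicate 7 left out it was 0.235.

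The 250 bases before the RefSeq start of Cyp2e1 are shown because this gene led the comparison. They lie at chr7:140763569-140763818 on the plus strand of GRCm38.p6, with a TATAAA match and both CCAAT matches (read as ATTGG on this strand) in capitals.
Cyp2e1 upstream: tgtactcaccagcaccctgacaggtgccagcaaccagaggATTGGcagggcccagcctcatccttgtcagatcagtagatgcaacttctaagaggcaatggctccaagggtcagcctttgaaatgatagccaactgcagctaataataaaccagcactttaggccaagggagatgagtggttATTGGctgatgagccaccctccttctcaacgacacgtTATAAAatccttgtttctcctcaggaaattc
On either strand, TATAAA occurs in 12.4% and CCAAT in 33.8% of 32851 RefSeq upstream windows of this length. A match is a description of the letters only.

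Of 24 tested cytochrome P450 and detoxifying genes, 6 were higher and 0 lower with MOTS-c at an unadjusted p under 0.05, with a median log2 change of 0.11. Of all tested genes 4.67% were higher and 6.4% lower. Cyp2e1, which an earlier fit of these data had called, was 1 of the 6. Cyp1b1, a P450 that acts on steroids and aryl hydrocarbons, had means of 1.05 ± 0.26 and 1.68 ± 0.37 scaled TPM, a log2 change of 0.38 with MOTS-c higher in 61 of 64 pairs. The flavin-containing monooxygenases Fmo1 and Fmo2 had log2 changes of 0.38 and 0.44, the alcohol dehydrogenase Adh1 had 0.28 and Cyp2f2 had 0.36. Por, the electron donor of microsomal P450s, was at 27.1 ± 6.07 and 25.1 ± 4.68 scaled TPM, groups that overlapped. With casted replicates 1 to 4 alone the cytochrome P450 and detoxifying genes had 4 higher and 1 lower, beside 2.05% and 2% of all tested genes.

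Fat cell genes had higher means with MOTS-c against either set of casted water libraries. Of 28 adipocyte markers, 23 passed the filter on low values and 12 of them were higher with MOTS-c at an unadjusted p under 0.05, none lower, with a median log2 change of 0.30. Of all tested genes 4.67% were higher, 10.4% against casted replicates 5 to 8 alone and 3.81% without the library labelled MOTS-c replicate 5. Against casted replicates 1 to 4 alone, 9 of 23 were higher, with a median of 0.25 and an all-gene share of 2.05%. Against replicates 5 to 8 alone 12 were higher and 1 lower, and without the library labelled MOTS-c replicate 5 the count was 11 higher and 0 lower. With that library and casted replicates 5 to 8 all left out, 8 adipocyte markers were higher and 0 lower. The all-gene share higher was then 2.45%. No member passed the adjusted threshold in the 16-library fit.

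Among secreted adipocyte products, Adipoq, which encodes the hormone adiponectin, was at 7.11 to 12.9 scaled TPM (median 8.88) in casted water libraries and at 10.1 to 17.3 (median 16.4) with MOTS-c. The groups overlapped, uncasted muscle held 5.09 to 9.80, and MOTS-c was higher in 59 of 64 pairs. The log2 change of Adipoq was 0.59 ± 0.13 (SE; limma adjusted p = 0.14), 0.45 against casted replicates 1 to 4 and 0.74 against 5 to 8. Cfd, the serine protease adipsin, was at 42.9 to 82.7 scaled TPM (median 59.1) with water and 58.5 to 129 (median 96.8) with MOTS-c, which overlap, a log2 change of 0.59 (limma adjusted p = 0.273). Retn, which encodes resistin, was at 4.66 ± 1.45 and 6.02 ± 1.72 scaled TPM.

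Genes of lipid handling in fat cells varied in the size of their log2 change. Fabp4, the fatty acid binding protein of adipocytes and capillary endothelium, was at 150 to 256 scaled TPM (median 203) with water and 256 to 332 (median 278) with MOTS-c, groups that did not overlap. Its log2 change was 0.47 ± 0.11 (SE, limma adjusted p = 0.191). Uncasted muscle held 213 to 324 scaled TPM, a range that overlaps both groups. The casted water median of 203 lay below that range and the MOTS-c median of 278 within it. Cidec, a lipid droplet protein, was at 5.81 to 9.12 (median 7.38) with water and 6.76 to 14.8 (median 12.6) with MOTS-c, a log2 change of 0.59. Pck1, which supplies glycerol for triglyceride in fat cells, had a log2 change of 0.68, and Lpl, the lipoprotein lipase, had 0.32. Plin1, the perilipin that coats adipocyte droplets, was at 4.35 ± 1.2 and 4.55 ± 0.72 scaled TPM, and Pparg, the regulator of fat cell differentiation, at 2.40 ± 0.57 and 2.55 ± 0.46. These 2 did not differ beyond their spread.

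Arxes2, an adipocyte-related endoplasmic reticulum gene, was the adipocyte marker with the smallest p. It was named because an earlier fit of these data had called it, so this rank is no separate support. It was at 0.46 to 0.86 scaled TPM (median 0.71) with water and 1.0 to 2.16 (median 1.41) with MOTS-c, so all 64 pairs were higher, and uncasted muscle held 0.23 to 0.88. Its log2 change was 0.50 ± 0.09 (SE; limma adjusted p = 0.112), 0.52 against casted replicates 1 to 4 and 0.49 against 5 to 8. The level is near the filter and a near-identical copy, Arxes1, did not pass it, so the split of reads between the copies is uncertain.

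The summed level of the adipocyte markers overlapped between the groups, at 4672 to 6852 scaled TPM with water and 4753 to 7059 with MOTS-c. Car3, which muscle fibres also express, made up most of that sum, at 4548 ± 626 and 4361 ± 874. The defining adipocyte markers (Adipoq, Plin1, Cidec, Cfd, Retn and Lep) summed to 62.8 to 116 scaled TPM (median 83.2) with water, 82.2 to 173 (median 135) with MOTS-c and 42.9 to 81.8 in uncasted muscle. Cfd made up most of this defining sum in both casted groups, and Plin1 did not differ between them beyond its spread. Lep, which encodes leptin, was below the filter.

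**Figure D2:**
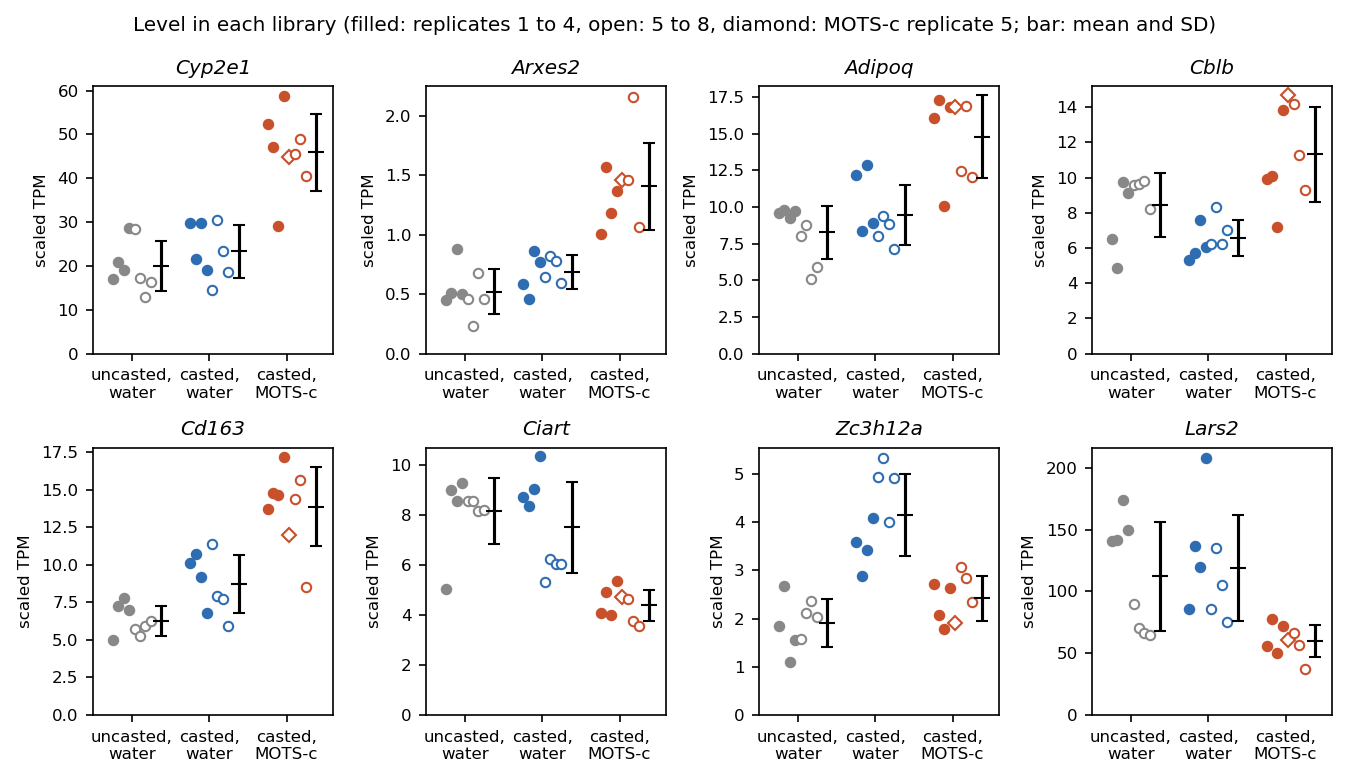
Scaled TPM of 8 genes in each library by group, with replicates 1 to 4 as filled points, 5 to 8 as open points, the library labelled MOTS-c replicate 5 as a diamond, and the mean with SD of 8 libraries as bars. The MOTS-c libraries are mostly above casted water for the first 5 genes and mostly below for Ciart, Zc3h12a and Lars2, and Ciart separates casted replicates 1 to 4 from 5 to 8.

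Macrophage genes also had higher means with MOTS-c. Of 22 tested macrophage markers, 10 were higher and 0 lower at an unadjusted p under 0.05, with a median log2 change of 0.39. The count of macrophage markers was 2 higher against casted replicates 1 to 4, 17 against 5 to 8, and 12 without the library labelled MOTS-c replicate 5. The all-gene share higher was 4.67% with all 16 libraries. It was 2.05% against casted replicates 1 to 4, 10.4% against 5 to 8 and 3.81% without that library. Cd163, the haemoglobin-haptoglobin scavenger receptor of resident macrophages, was at 5.94 to 11.4 scaled TPM (median 8.57) with water, 8.50 to 17.2 (median 14.5) with MOTS-c and 5.0 to 7.76 in uncasted muscle. Its groups overlapped at MOTS-c replicate 8, and its log2 change was 0.62 ± 0.14 (SE; limma adjusted p = 0.159), 0.54 against casted replicates 1 to 4 and 0.69 against 5 to 8. The complement gene C1qa was at 20.5 ± 5.16 and 29.9 ± 6.44 scaled TPM, and Folr2, another resident macrophage gene, at 3.89 ± 1.54 and 6.02 ± 1.08. Cd68, a lysosomal glycoprotein of phagocytes, was at 32.4 ± 15.3 and 29.7 ± 16.9, with no difference beyond its spread. The summed macrophage markers ranged from 163 to 387 scaled TPM with water and from 215 to 478 with MOTS-c.

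Counts of matrix genes depended on which casted libraries were used. Of 33 extracellular matrix genes, 15 were higher and 0 lower with MOTS-c at an unadjusted p under 0.05 (median log2 change 0.40), 26 against casted replicates 5 to 8 (median 0.65), and 0 against casted replicates 1 to 4 (median 0.06). Col1a1, a chain of type I collagen, was at 7.16 to 74.7 scaled TPM (median 13.2) with water and 17.9 to 72.0 (median 47.0) with MOTS-c, groups that overlapped over almost their whole range, with 43.7 to 163 in uncasted muscle. Its log2 change was 1.15 ± 0.42 (SE; limma adjusted p = 0.395), 0.30 against casted replicates 1 to 4 and 1.99 against 5 to 8. Eln, which encodes elastin, had the smallest p of these extracellular matrix genes, at 5.59 to 10.6 scaled TPM with water and 7.96 to 14.0 with MOTS-c, a log2 change of 0.50 with 58 of 64 pairs higher. Without the library labelled MOTS-c replicate 5, 12 extracellular matrix genes were higher. The all-gene share higher was 4.67% with all 16 libraries and 3.81% without that library. It was 10.4% against casted replicates 5 to 8 and 2.05% against 1 to 4.

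Markers of progenitors, vessels and nerve were counted in the same way. All-gene shares higher were 4.67% with all 16 libraries, 2.05% with casted replicates 1 to 4 alone and 10.4% with 5 to 8 alone. Without the library labelled MOTS-c replicate 5 the share was 3.81%. Of 20 fibro-adipogenic progenitor markers, 4 were higher with MOTS-c (median log2 change 0.23), against 1 with casted replicates 1 to 4, 9 with 5 to 8 and 2 without the library labelled MOTS-c replicate 5. The progenitor marker Pi16 was at 10.0 ± 3.64 and 18.3 ± 5.89 scaled TPM. All 18 endothelial markers had a positive log2 change (median 0.12) and 7 had an unadjusted p under 0.05. Their mean log2 level varied between libraries of a group with an SD of 0.14, so the members are not separate observations. The tight junction gene Cldn5 led them at 7.80 ± 1.07 and 11.2 ± 3.43 scaled TPM, with Gpihbp1, which anchors lipoprotein lipase in capillaries, at 25.3 ± 3.40 and 30.3 ± 2.37. With casted replicates 1 to 4 alone, 1 of the endothelial markers was higher (median 0.03), with 5 to 8 alone 8 were (median 0.23), and 4 were without the library labelled MOTS-c replicate 5 (median 0.10). Of 13 Schwann cell and myelin markers, 7 were higher, 1 with casted replicates 1 to 4 alone, 6 with 5 to 8 alone and 4 without the library labelled MOTS-c replicate 5, and the myelin protein Pmp22 was at 34.4 ± 4.24 and 46.3 ± 11.1 scaled TPM. Of 13 smooth muscle and pericyte markers 2 were higher, 0 with casted replicates 1 to 4 alone and 5 with 5 to 8 alone, and of 14 tendon markers 0. The median of the tendon markers was 0.10 and turned to -0.23 with casted replicates 1 to 4 alone.

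Most markers of T and NK cells and of B cells were below the filter. Of 13 T and NK cell markers and 7 B cell markers, 1 each passed the filter. The defining T and NK cell markers summed to 0.05 to 0.74 scaled TPM with water and 0.19 to 0.98 with MOTS-c, and none of the defining markers was at 0 in all 16 libraries. The defining neutrophil markers summed to 4.02 to 19.3 and 1.99 to 23.6. None of the 5 tested neutrophil markers, of 10, had an unadjusted p under 0.05 (median log2 change 0.16).

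**Figure D3:**
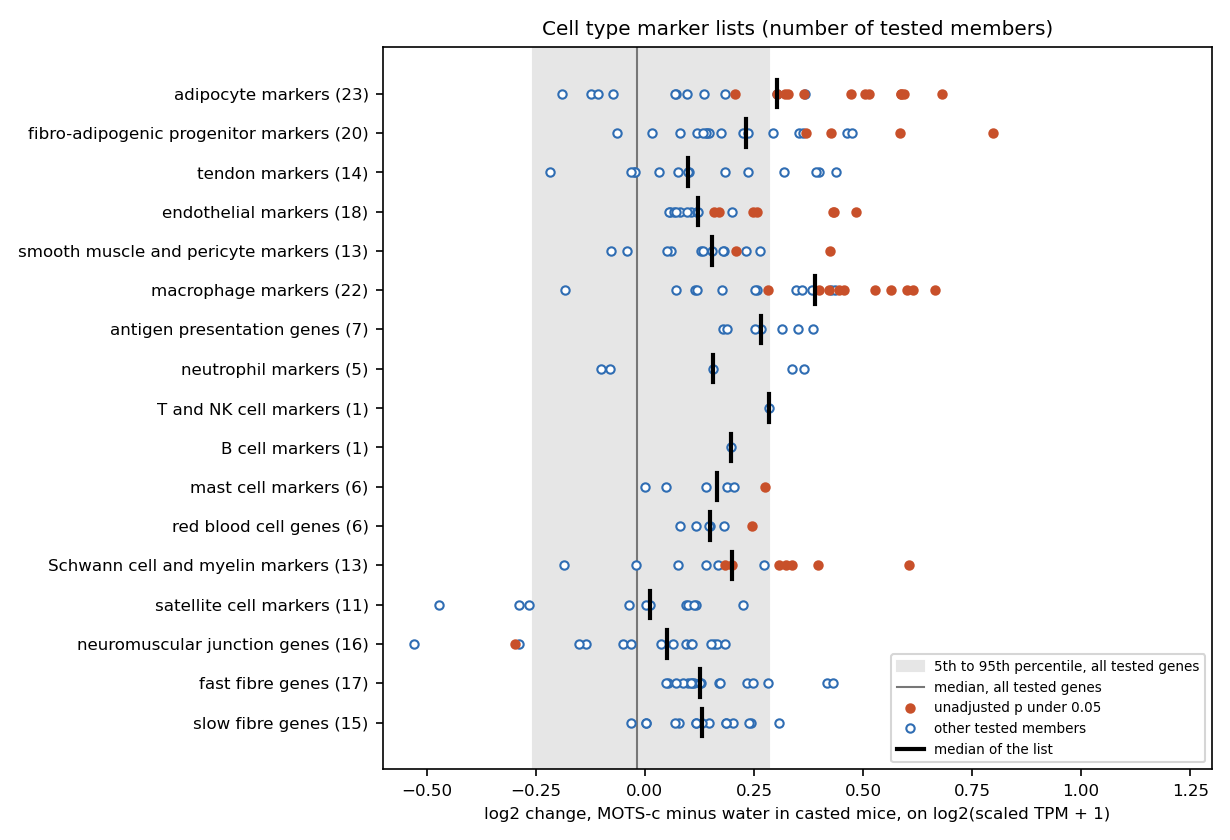
Log2 change of each tested member of 17 cell type lists, with filled points for an unadjusted p under 0.05, a bar at each list's median, and the grey band from the 5th to the 95th percentile of all tested genes. Adipocyte and macrophage markers have the most filled points, 12 and 10, all higher with MOTS-c.

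**Figure D4:**
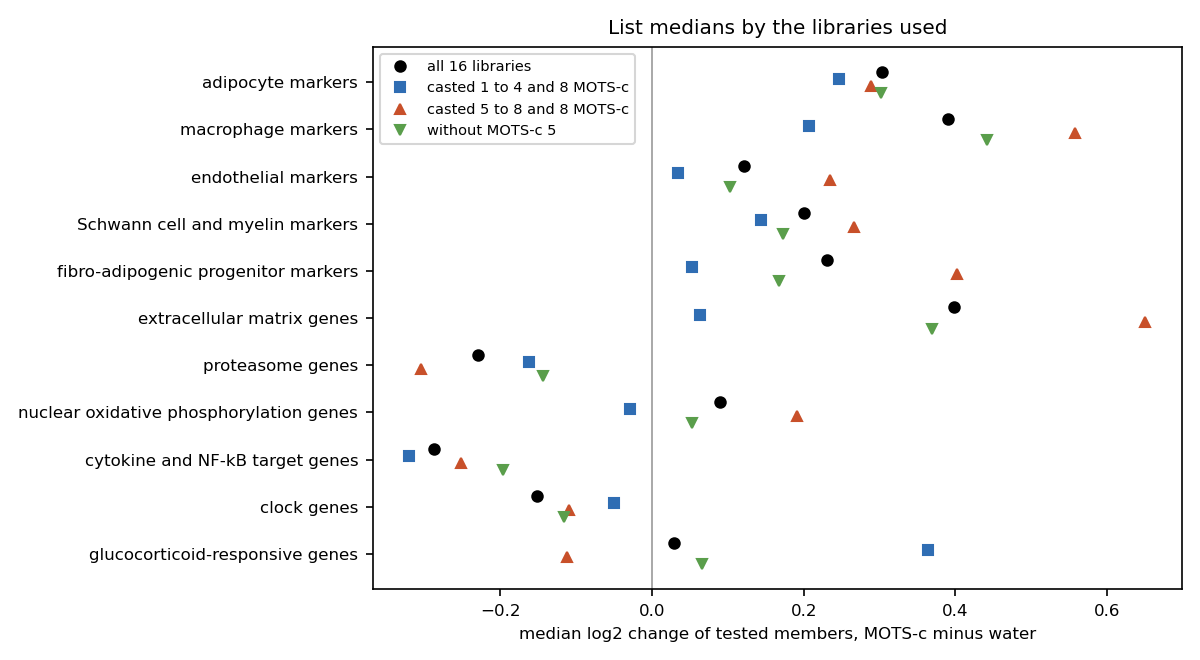
Median log2 change of the tested members of 11 lists, fitted with all 16 libraries (circles), with casted replicates 1 to 4 alone (squares), with casted replicates 5 to 8 alone (triangles), and without the library labelled MOTS-c replicate 5 (inverted triangles). The adipocyte median lies between 0.25 and 0.30 in all 4, and the extracellular matrix median runs from 0.06 to 0.65.

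Ciart, a repressor of the circadian clock, was called lower when casted replicates 1 to 4 were set against all 8 MOTS-c libraries or against 7 of them. It was also called lower in the fit that shared its spread over all 24 libraries (limma adjusted p = 0.0474). With replicates 1 to 4 or 5 to 8 as a covariate its limma adjusted p was 0.0363. It was at 8.36 to 10.4 scaled TPM in casted replicates 1 to 4, at 5.34 to 6.24 in casted replicates 5 to 8, and at 3.57 to 5.35 (median 4.37) in the 8 MOTS-c libraries. Uncasted muscle held 5.05 to 9.30 (median 8.55). The MOTS-c libraries were lowest, with an overlap of 1 pair of 64 with casted water. The log2 change was -0.64 ± 0.12 (SE; limma adjusted p = 0.112) over all 16 libraries, -0.91 against casted replicates 1 to 4 (adjusted p = 0.00597) and -0.37 against 5 to 8 (adjusted p = 0.056). Between replicates 1 to 4 of both groups it was -0.86 (limma adjusted p = 0.26), not past the threshold. Without the library labelled MOTS-c replicate 5 it was -0.65. An antisense transcript, C920021L13Rik, overlaps the whole of Ciart, and no source used here says whether counting used strand, so reads of the pair cannot be told apart.

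The upstream window of Ciart is shown because clock proteins act through the E-box CACGTG, given in capitals with the CCAAT matches (also read as ATTGG). It lies at chr3:95882229-95882478 of GRCm38.p6 and is written along the minus strand, on which the gene lies.
Ciart upstream: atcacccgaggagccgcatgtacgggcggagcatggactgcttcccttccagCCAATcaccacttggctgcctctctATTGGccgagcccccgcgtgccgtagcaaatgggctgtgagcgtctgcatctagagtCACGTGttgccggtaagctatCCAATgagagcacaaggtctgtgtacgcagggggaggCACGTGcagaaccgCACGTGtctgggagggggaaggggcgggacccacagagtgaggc
It holds 3 CACGTG matches. CACGTG occurs in 6.02% of the 32851 upstream windows, and 3 or more matches occur in 0.0609%. Of 16 clock genes with a listed window, 5 have a match (Ciart, Per1, Cry1, Tef and Bhlhe41). Of all 27025 genes with a listed window, 1854 (6.86%) have a match.

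Of 18 tested clock genes, 0 were higher and 2 lower with MOTS-c at an unadjusted p under 0.05, with a median log2 change of -0.15. Ciart was 1 of these 2. With casted replicates 1 to 4 alone 1 clock gene was higher and 2 lower. Of all tested genes 4.67% were higher and 6.4% lower with all 16 libraries. With casted replicates 1 to 4 alone these shares were 2.05% and 2%. Nr1d2, a nuclear receptor of the clock, was at 68.3 ± 4.27 and 61.4 ± 6.36 scaled TPM. The core clock activator Arntl was at 11.9 ± 3.49 and 14.0 ± 4.79, and the repressor Per2 at 8.15 ± 0.75 and 7.90 ± 1.33, without differences beyond their spread. Of 20 immediate early genes, which answer within minutes to activity, handling or stress, 0 were higher and 5 lower. Against casted replicates 1 to 4 alone 2 of these immediate early genes were lower. Without the library labelled MOTS-c replicate 5 it was 5, beside 4.82% of all tested genes. Among them Fos was at 12.0 ± 2.63 and 8.68 ± 4.12 scaled TPM, and Junb at 42.9 ± 18.8 and 27.9 ± 13.0. No source used here gives the time of day of tissue collection.

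Genes of muscle atrophy shared no direction. Of 28 genes in the atrophy ligases and FoxO pathway list, 2 were higher and 1 lower at an unadjusted p under 0.05, with a median log2 change of -0.03. Among all tested genes 4.67% were higher and 6.4% lower. The ligase Fbxo32 was at 475 ± 198 and 474 ± 190 scaled TPM, and Trim63 at 1173 ± 443 and 1180 ± 551, with 95% intervals of the log2 change from -0.65 to 0.63 and from -0.71 to 0.63. Fbxo32 was lowest among the 16 in the library labelled MOTS-c replicate 5, at 164 scaled TPM. Cblb, a ubiquitin ligase known to act on the insulin receptor substrate in unloaded muscle, was at 5.33 to 8.31 scaled TPM (median 6.24) with water, 7.19 to 14.7 (median 10.7) with MOTS-c and 4.89 to 9.78 in uncasted muscle. Its log2 change was 0.68 ± 0.13 (SE; limma adjusted p = 0.112), with 62 of 64 pairs higher, 0.76 against casted replicates 1 to 4 and 0.61 against 5 to 8. Without MOTS-c replicate 3 the adjusted p of Cblb was 0.022. Foxo1 was at 20.3 ± 5.64 and 25.4 ± 4.79 scaled TPM, and the kinase Akt1 at 123 ± 26.2 and 89.5 ± 21.9. With casted replicates 1 to 4 alone, 4 genes of the atrophy ligases and FoxO pathway list were higher and 0 lower. The all-gene shares were then 2.05% and 2%.

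Mettl21e, a muscle lysine methyltransferase, was at 0.39 to 1.29 scaled TPM (median 0.91) with water, 1.40 to 2.76 (median 1.73) with MOTS-c and 1.61 to 6.11 (median 4.17) in uncasted muscle. The casted groups did not overlap, and the log2 change was 0.56 ± 0.11 (SE; limma adjusted p = 0.132). It was 0.48 against casted replicates 1 to 4, 0.63 against 5 to 8 and 0.49 without the library labelled MOTS-c replicate 5, which held the highest MOTS-c value. Mybph, a myosin binding protein, was at 8.55 to 196 (median 16.9) with water and 32.5 to 74.1 (median 44.5) with MOTS-c, against 142 to 230 in uncasted muscle. The water value of 196 was casted replicate 2, and without that 1 library the log2 change of Mybph was 1.46 (limma adjusted p = 0.078), against 1.02 with it.

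Of 17 fast fibre genes and 15 slow fibre genes, 0 had an unadjusted p under 0.05 in either direction. All 17 fast fibre genes had a positive log2 change (median 0.13), which turned to a median of -0.01 with casted replicates 1 to 4 alone. The mean log2 level of the fast fibre genes varied between libraries of a group with an SD of 0.26. Without the library labelled MOTS-c replicate 5, in which the fast fibre genes summed to 216500 scaled TPM, 14 of the 17 had a positive log2 change (median 0.04). Myh4, the main fast myosin of mouse gastrocnemius, was at 14834 ± 2793 and 15908 ± 3299 scaled TPM and the slow myosin Myh7 at 87.6 ± 20.0 and 102 ± 35.4. Of 11 satellite cell markers 0 had an unadjusted p under 0.05, and of 16 neuromuscular junction genes 1 was lower. Of all tested genes 6.4% were lower and 4.67% higher. Of 11 AMPK and casein kinase 2 subunits, the pathways named for MOTS-c, 0 were higher and 0 lower. Csnk2a1, the catalytic subunit of casein kinase 2, was at 84.7 ± 4.10 and 86.0 ± 6.48 scaled TPM, with a 95% interval of the log2 change from -0.10 to 0.14, and Prkaa2, the main AMPK catalytic subunit of muscle, was at 115 ± 18.4 and 108 ± 10.5, with an interval from -0.27 to 0.11.

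Counts of mitochondrial and proteasome genes depended on the libraries used. Of 63 nuclear oxidative phosphorylation genes, 7 were higher and 0 lower (median log2 change 0.09), with 31 higher against casted replicates 5 to 8 and 2 lower against 1 to 4. Of all tested genes 4.67% were higher, 10.4% were higher against 5 to 8, and 2% were lower against 1 to 4. Without casted replicates 5 to 8 and the library labelled MOTS-c replicate 5, 6 of the 63 were lower and 0 higher. The all-gene share lower was then 2.67%. Atp5k, a member of this list, was at 70.7 to 108.9 scaled TPM in casted replicates 5 to 8 and at 163.4 to 354.9 in the other 20 libraries. What sets those 4 libraries apart was not tested for its part in these counts. The complex I subunit Ndufs1 was at 145 ± 8.69 and 162 ± 17.8 scaled TPM, with 201 in the library labelled MOTS-c replicate 5 and 286 to 317 in uncasted muscle. All 31 proteasome genes had a negative log2 change (median -0.23, beside -0.02 over all tested genes), and 9 had an unadjusted p under 0.05. Their mean log2 level varied between libraries of a group with an SD of 0.26, so the members are not separate observations. The summed proteasome genes overlapped, at 6203 to 9638 scaled TPM with water and 4593 to 9576 with MOTS-c. The count of proteasome genes was 2 lower against casted replicates 1 to 4, 12 against 5 to 8, and 5 without the library labelled MOTS-c replicate 5 (median -0.14). The all-gene share lower was 6.4% with all 16 libraries. It was 2% against casted replicates 1 to 4, 14.7% against 5 to 8 and 4.82% without that library. Psmb5, a catalytic subunit, was at 178 to 269 scaled TPM with water and 130 to 239 with MOTS-c, lowest in the library labelled MOTS-c replicate 5.

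Fat use in muscle gave a smaller group. Of 28 fatty acid uptake and oxidation genes, 5 were higher and 0 lower at an unadjusted p under 0.05, with a median log2 change of 0.02. Among all tested genes 4.67% were higher and 6.4% lower. Ucp3, a mitochondrial carrier of fasted muscle, was at 163 ± 46.4 and 239 ± 57.0 scaled TPM, and Fabp3, the fatty acid binding protein of muscle, at 228 ± 38 and 291 ± 58.2. Cpt1b, which admits fatty acids to mitochondria, was at 127 ± 24.3 and 122 ± 14.5. Of 15 glucocorticoid-responsive genes 3 were higher and 0 lower (median 0.03). Their median was 0.36 against casted replicates 1 to 4 and -0.11 against 5 to 8. Among these glucocorticoid-responsive genes, Angptl4, an inhibitor of lipoprotein lipase, was at 8.91 to 14.9 scaled TPM with water, 12.1 to 18.5 with MOTS-c and 2.91 to 5.61 in uncasted muscle.

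Zc3h12a, an endoribonuclease that degrades cytokine messages, was at 2.88 to 5.34 scaled TPM (median 4.05) with water, 1.78 to 3.06 (median 2.49) with MOTS-c and 1.09 to 2.67 in uncasted muscle. The log2 change of Zc3h12a was -0.58 ± 0.11 (SE; limma adjusted p = 0.112), with 1 of 64 pairs higher. It was -0.40 against casted replicates 1 to 4, -0.77 against 5 to 8 and -0.55 without the library labelled MOTS-c replicate 5. Of 21 cytokine and NF-kB target genes, 20 had a negative log2 change (median -0.29). An unadjusted p under 0.05 was found for 2 of them, Relb and Nfkbie, beside 6.4% of all genes tested that were lower. The mean log2 level of this list varied between libraries of a group with an SD of 0.31. Of the cytokine and NF-kB target genes, 1 was lower against casted replicates 1 to 4 alone (median -0.32), 5 against 5 to 8 alone (median -0.25), and 2 without the library labelled MOTS-c replicate 5 (median -0.20). The all-gene shares lower in these fits were 2%, 14.7% and 4.82%. The library labelled MOTS-c replicate 5 was the lowest of the MOTS-c libraries for Nfkb2 (4.84 scaled TPM), Relb (5.28) and Map3k14, the kinase upstream of Nfkb2 (2.03, against 1.98 to 3.01 in uncasted muscle). Without it the log2 change of Map3k14 was -0.61 instead of -0.93. Elf3, an epithelial transcription factor, was at 1.2 to 4.84 scaled TPM with water and 0.04 to 1.44 with MOTS-c, and its log2 change of -0.87 became -0.73 without that library. Csf2rb2, a receptor subunit for interleukin-3, was at 4.36 to 21.6 with water and 1.73 to 8.10 with MOTS-c, a log2 change of -0.86 that was -1.17 against casted replicates 1 to 4 and -0.56 against 5 to 8.

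Lars2, the mitochondrial leucyl-tRNA synthetase, had the lowest log2 change among the 10 genes of smallest p with lower means. It was at 74.9 to 208 scaled TPM (median 112) with water and 37.5 to 77.8 (median 58.7) with MOTS-c, so 1 of 64 pairs was higher with MOTS-c. The log2 change was -0.94 ± 0.18 (SE; limma adjusted p = 0.113), -1.15 against casted replicates 1 to 4 and -0.73 against 5 to 8. In uncasted muscle Lars2 was at 141 to 174 in replicates 1 to 4 and at 65.1 to 90.1 in replicates 5 to 8, sets that did not overlap although both come from 1 group.

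Among the remaining leading genes with higher means, Cited2, a transcriptional co-regulator induced by low oxygen, was at 28.3 ± 5.82 and 43.2 ± 7.74 scaled TPM with 61 of 64 pairs higher. Sbsn, which encodes suprabasin, was at 1.89 to 2.86 with water and 2.84 to 4.35 with MOTS-c, with 63 of 64 pairs higher, and its log2 change was 0.55 against casted replicates 1 to 4 and 0.34 against 5 to 8. Hhex, a homeobox factor of vessels and liver, was at 0.81 to 1.27 and 1.33 to 2.18, without overlap, while uncasted muscle held 0.40 to 2.21. Car5b, a mitochondrial carbonic anhydrase, was at 1.01 ± 0.24 and 1.66 ± 0.28.

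Other leading genes had lower means with MOTS-c. Afg3l1, a mitochondrial protease subunit, was at 27.4 to 31.7 scaled TPM with water and 23.4 to 25.6 with MOTS-c, a log2 change of -0.23 without overlap. Dgkd, a diacylglycerol kinase, was at 22.2 to 26.3 and 17.9 to 22.1, also without overlap, and Ankrd39 at 6.86 to 11.1 and 5.10 to 6.84. Nxt1, an RNA export factor, was at 5.48 ± 0.44 and 4.29 ± 0.37, and its log2 change was near the same against casted replicates 1 to 4 (-0.29) and 5 to 8 (-0.30). Cope, a coat protein of Golgi vesicles, was at 72.5 to 124 and 56.3 to 78.4, and its log2 change was -0.26 against casted replicates 1 to 4 and -0.60 against 5 to 8. Galnt2, which starts O-linked glycosylation, was at 10.1 to 22.8 and 8.83 to 14.5. Its adjusted p was 0.017 without casted replicate 4. Galnt2 and Afg3l1 share bases with the read-through gene Gm20388, and Ankrd39 with Gm42417, so their counts may be split. Gm42417 was at 4.91 to 20.1 scaled TPM in casted replicates 5 to 8 and at 267 to 674 in the other 20 libraries. Its part in the Ankrd39 values was not tested.

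Short transcripts, genes that overlap others and a member of a near-identical family were among the other genes named. Asdurf, a reading frame at the start of Asnsd1 with a longest transcript of 300 bases, was at 0 to 13.7 scaled TPM (median 3.38) with water, where it is listed at 0 in 3 libraries, and at 9.80 to 23.9 (median 13.1) with MOTS-c, and the log2 change was 2.18 ± 0.55 (SE; limma adjusted p = 0.213). It was 1.34 against casted replicates 1 to 4 and 3.03 against 5 to 8. Bc1, of 168 bases, had a log2 change of 1.33, which was 0.11 against casted replicates 1 to 4 and 2.55 against 5 to 8, the replicates in which short transcripts were low. Mup22, of the near-identical major urinary protein family, was at 0.20 to 3.05 and 1.10 to 9.39. Gm45808, a predicted gene that overlaps Bax and Dhdh, was at 7.94 to 18.8 and 4.17 to 8.56, a log2 change of -0.94 that was -0.58 against casted replicates 1 to 4 and -1.29 against 5 to 8. Ppp1r27, a small regulatory subunit of protein phosphatase 1, was at 139 to 269 scaled TPM with water and 25.5 to 180 with MOTS-c, against 51.9 to 84.7 in uncasted muscle, and its log2 change of -0.95 became -0.67 without the library labelled MOTS-c replicate 5. The part that transcript length and these libraries have in these results was not tested.

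**Figure D5:**
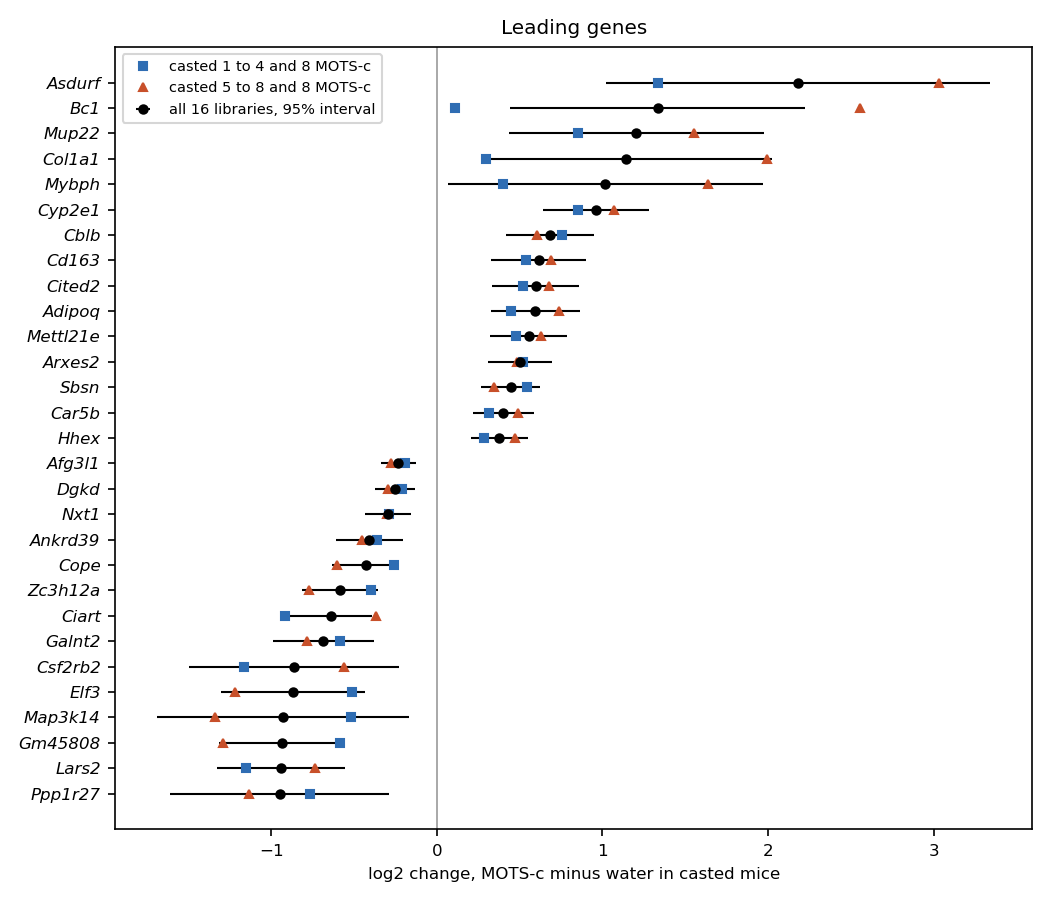
Log2 change of 29 leading genes with all 16 libraries and its 95% interval (circles with bars), against casted replicates 1 to 4 alone (squares) and against 5 to 8 alone (triangles). Arxes2 and Nxt1 have nearly the same value against both sets, and Bc1 runs from 0.11 to 2.55 and Col1a1 from 0.30 to 1.99.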

How the data were processed

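RNA from the gastrocnemius of 24 mice was deposited as 1 table per library. The tools named, per the submitters' processing notes, are STAR, RSEM, FastQC and DESeq2, on GRCm38.p6. Their roles and versions, the annotation and the strand setting were not given in the sources used here. Values were deposited as TPM computed by the authors, so depth is unknown and no count test was run. Gene names came from GENCODE M21, which named 55227 of 55487 IDs, and upstream sequences from RefSeq for GRCm38.p6.

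TPM were divided by an unweighted trimmed mean of log ratios over the 16 casted libraries (30% of ratios and 5% of levels trimmed at each end). Genes with 0.5 TPM or more in 8 or more of the 16 were tested on log2(scaled TPM + 1) with limma 3.58.1 (R 4.3.3; moderated test with a mean-variance trend, 2 groups, two-sided) and Benjamini-Hochberg adjustment over all 14318 genes, at a threshold of 0.05. The fit was checked on simulated data. Levels are mean ± SD of 8 libraries. The labels number mice within groups, and nothing more is said of litters or cages. Same-numbered libraries of the groups correlated from -0.27 to 0.39, with 2 of 8 pairs above 0.1, so the numbers were not treated as pairs.

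Named genes were Cyp2e1, Arxes2 and Gm45808; the 10 of smallest p in each direction with a mean of at least 1 scaled TPM, leaving out predicted genes and mitochondrial genes with their near-copies; the 5 largest changes in each direction in which at least 7 of 8 libraries of each group lay beyond the other group's median; and defining or lowest-p members of 46 gene lists. Other names were chosen after their values were seen. A few items that the rule names are not reported here. The members and lists were chosen with earlier results of these data known, so lists are described by counts and medians without a test. Alternatives covered scaling, pseudocount, filter, model settings, and left-out libraries.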

Additional observations from a re-analysis of the deposited data

Results flagged for a closer look

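In groups of 8, a value was singled out when its gap to the nearest other value exceeded Dixon's 95% limit of 0.526 of the group's range. Gaps and ranges of genes and of summed markers were taken on the log2(scaled TPM + 1) scale, and on a linear scale a different set of values could pass. Among the 98 groups examined 10 values did so, and chance gives about 1 in 20. The library labelled MOTS-c replicate 5 gave 5 of them: the lowest Cope (56.3 scaled TPM), Elf3 (0.0375) and Map3k14 (2.03) of the MOTS-c group, its highest summed fast fibre genes (216500 scaled TPM) and its highest share of mitochondrial and near-copy TPM (37.3%). Casted replicate 8 gave 3, the lowest Mettl21e (0.39 scaled TPM), the lowest summed tendon markers (44.1) and the lowest summed smooth muscle and pericyte markers (276). Casted replicate 2 had the highest Mybph (196 scaled TPM), and MOTS-c replicate 6 had the highest summed satellite cell markers (170). None of the 10 was a summed pathway list, although such sums also held values far from their group. Summed heat shock genes were at 11480 scaled TPM in casted replicate 2 and at most 5877 in the other casted water libraries. Summed cytokine and NF-kB target genes were at 131.8 in the library labelled MOTS-c replicate 5 and at least 295.8 in the other MOTS-c libraries.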

How the results depend on the processing

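Against 0 genes higher and 0 lower in the 16-library comparison, a fit of all 24 libraries called 2 higher (Cyp2e1 and Arxes2) and 2 lower (Ciart and Gm45808), and casted replicates 5 to 8 alone gave 242 higher and 274 lower. Replicates 5 to 8 of both groups gave 13 higher and 2 lower, and replicates 1 to 4 of both groups gave 0 and 0. The replicate number as a block called 0 higher and 1 lower (Lars2, limma adjusted p = 0.0383); 2 of 8 MOTS-c libraries correlated best with the casted library of their own number. Replicates 1 to 4 against 5 to 8 as a covariate, casted replicates 1 to 4 alone, and the fit without casted replicates 5 to 8 and MOTS-c replicate 5 (chosen after the data were seen) each gave 0 higher and 1 lower, Ciart. Leaving out each library in turn gave 0 to 2 genes higher and 0 to 1 lower, with calls without MOTS-c replicate 3 (Cyp2e1, Cblb) and without casted replicate 4 (Galnt2). The other settings gave 0 and 0. Genes at an unadjusted p under 0.05 numbered 357 higher (2.49% of tested genes) and 1219 lower (8.51%) on the deposited TPM without scaling, against 668 (4.67%) and 917 (6.4%). They numbered 1018 and 1511 with array weights, 1114 and 1209 without the filter, 300 and 756 at a mean of at least 5 scaled TPM, 68 and 23 against a fold of 1.2, 369 and 426 with replicates 1 to 4 of both groups, and 1013 higher with replicates 5 to 8 of both; without casted replicate 8, 554 were lower. The causes were not tested.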
